A study of Rattus norvegicus with 6 samples.

Results

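The interferon signalling and antigen presentation genes were 45 listed names, from the interferon receptors through their kinases and transcription factors to the RNA sensors, the antiviral products and the machinery that loads peptides on class I molecules. They were taken by exact match of the gene symbol in the deposited tables. Rigi and Ddx58 name the same gene, which stands in the tables as Ddx58, so the names cover 44 genes of the 20653 in the tables. Of these, 42 passed the filter on low counts and were tested. The libraries were 3 of NPS-EMSC and 3 of EMSC. Both are primary mesenchymal stem cells of rat nasal mucosa with SD as the genotype, and per the series title the NPS-EMSC overexpress neuropeptide S. The labels do not say how the gene was delivered, whether EMSC carried a control vector, or whether the libraries of a group came from separate cultures, so p-values measure only the spread between these libraries. A response to gene delivery and one to neuropeptide S cannot be told apart in this design.

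Type I interferons bind a receptor made of Ifnar1 and Ifnar2, whose kinases Tyk2 and Jak1 phosphorylate Stat2. It joins Irf9 in a complex that binds the interferon-stimulated response element (ISRE) in the promoters of antiviral genes. Type II interferon binds Ifngr1 and Ifngr2, acts through Jak1 and Jak2 on genes with a gamma-activated site (GAS), with Irf1 as a classical early target. The cytosolic sensors Ddx58, Ifih1 and Dhx58 detect foreign RNA and act through Irf3 and Irf7 to induce interferon. Mesenchymal stem cells are known to raise antigen presentation and immunomodulatory genes when exposed to interferon.

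The libraries held 39082245 to 39511976 counted reads in NPS-EMSC and 39314098 to 40261205 in EMSC. Nps had 77014 to 93566 reads in the NPS-EMSC libraries, against 0, 0 and 10 in the EMSC libraries, as the labels state. Levels are given as CPM, read counts scaled by library size after TMM scaling, in which 1 read equals 0.0243 to 0.0261 CPM. Of all tested genes, 29.7% were called higher and 29.5% lower in NPS-EMSC, at the threshold given below. Of 10 tested mesenchymal stem cell markers, 7 were higher (70%) and 3 lower (30%). Summed levels, here and for the other cell types, are over all listed markers with a row. For the mesenchymal stem cell markers they were 22266 to 23420 CPM in NPS-EMSC and 21857 to 24029 CPM in EMSC. Of 12 tested leukocyte markers, 10 were lower (83.3%) and 1 higher (8.33%). Their summed level was 40.1 to 43.7 CPM in NPS-EMSC and 83.3 to 91.7 CPM in EMSC. Ptprc, the pan-leukocyte marker, had 0, 1 and 0 reads in NPS-EMSC and 33, 20 and 41 in EMSC. Of 3 tested Schwann cell markers 2 were lower (66.7%), with a summed level of 6.19 to 7.24 CPM in NPS-EMSC and 29.0 to 31.0 CPM in EMSC. Endothelial markers summed to 2.29 to 2.98 CPM in NPS-EMSC and 2.70 to 3.18 CPM in EMSC. Both tested epithelial markers, Krt8 and Krt18, were higher, with a summed level of 10.3 to 13.2 CPM in NPS-EMSC and 4.18 to 4.96 CPM in EMSC, while Krt5 had 0 reads in all NPS-EMSC libraries and Epcam had 4 reads in each group. In bulk RNA, fewer cells of a type and less RNA per cell cannot be told apart.

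EMSC replicate 1 stood apart from the other EMSC libraries in several antiviral genes. In 7 of the 16 tested effector and ISG15-system genes its level was at least 1.5 times the mean of the other EMSC libraries, and the ratio reached 8.24 for Rsad2 and 6.998 for Mx1. Values without that library are given beside those genes.

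Of the 42 tested genes, 23 were higher and 9 lower in NPS-EMSC at a Benjamini-Hochberg adjusted p under 0.05 in edgeR's quasi-likelihood test. That is 54.8% higher and 21.4% lower, against 29.7% higher and 29.5% lower among all 14505 genes tested. Called in either direction were 76.2% of the tested members and 59.3% of all genes. Mx1, Mx2 and Rsad2 reached the level of the low-count filter in all NPS-EMSC but not all EMSC libraries. They were thus tested because they were high in NPS-EMSC, and their calls are no separate support. The remaining 39 held 20 higher and 9 lower genes. The median log2 fold change (NPS-EMSC over EMSC) was 0.31 over the tested members and -0.0048 over all genes, and the median absolute value was 0.41, against 0.34. Of the 32 called genes, 16 changed by less than 1.5-fold, as did 4759 of the 8600 called over all genes. The median absolute log2 fold change of the called genes was 0.61 among members and 0.52 among all genes. Of the called members 9 were at least 2-fold higher, Mx1, Mx2 and Rsad2 among them, and 1 at least 2-fold lower. Over all 14505 tested genes, 940 were called at least 2-fold higher and 1204 at least 2-fold lower, together 14.8%. The medians and the overlap count of this paragraph also include Mx1, Mx2 and Rsad2. In 32 of 42 genes (76.2%) the values of the groups did not overlap, against 64.7% of all tested genes.

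**Figure D1:**
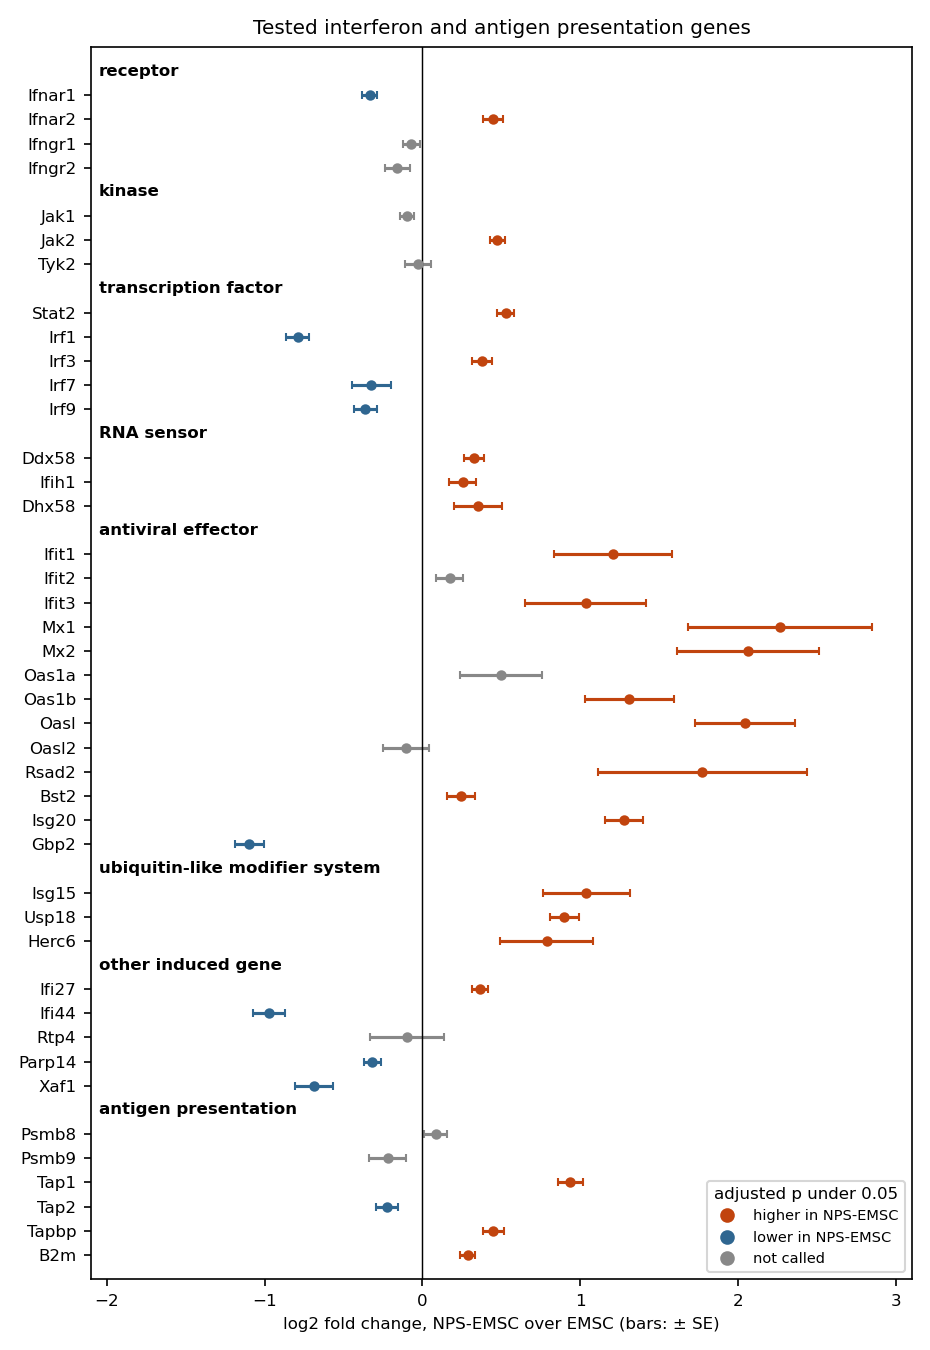
Log2 fold change of each tested gene, NPS-EMSC over EMSC, with its standard error as bars, grouped by role and coloured by the call at an adjusted p under 0.05. The antiviral effectors reach 2.26 (Mx1), while Gbp2, at -1.10, lies farthest to the left.

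On the scale of FPKM, which corrects for gene length, the members spanned a wide range. B2m, the light chain of class I molecules, was the most abundant at 526 FPKM in NPS-EMSC and 445 FPKM in EMSC. It was followed by Ifi27, a small mitochondrial and membrane protein of the interferon response, at 199 FPKM in NPS-EMSC and 159 FPKM in EMSC, and by Jak1 at 87.8 FPKM in NPS-EMSC and 96.9 FPKM in EMSC. The lowest of the tested genes was Mx1, at 0.280 FPKM in NPS-EMSC and 0.0497 FPKM in EMSC. The classical antiviral genes Ifit1, Ifit3, Mx2, Rsad2 and Herc6 were at most at 1.14 FPKM in NPS-EMSC and 0.496 FPKM in EMSC.

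The interferon receptor chains moved apart. Ifnar1, the chain that carries Tyk2, had 133, 130 and 126 CPM in NPS-EMSC and 169, 165 and 155 CPM in EMSC. Every NPS-EMSC library lay below every EMSC library, with a log2 fold change of -0.33 (SE 0.05, adjusted p = 1.38e-06). Ifnar2, the chain that binds Stat2 and carries Jak1, had 48.4, 48.1 and 50.1 CPM in NPS-EMSC and 35.4, 35.7 and 36.5 CPM in EMSC. All NPS-EMSC values lay above those of EMSC (log2 fold change 0.45, SE 0.06, adjusted p = 8.47e-07). The FPKM ratio of Ifnar2 to Ifnar1 was 0.751 ± 0.0356 in NPS-EMSC and 0.438 ± 0.0268 in EMSC (SD, n = 3 each; exact permutation test, two-sided, p = 0.1, the smallest that 3 against 3 libraries can give). For the type II receptor, Ifngr1 had a log2 fold change of -0.07 (95% interval -0.17 to 0.03) and Ifngr2 one of -0.16 (95% interval -0.32 to -0.004), and neither passed after adjustment (adjusted p = 0.267 and 0.0877). Without NPS-EMSC replicate 2, Ifngr2 passed at -0.25 (adjusted p = 0.0112).

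Of the receptor-associated kinases, Jak2, which serves the type II receptor, rose. It had 156, 150 and 163 CPM in NPS-EMSC and 112, 114 and 112 CPM in EMSC, without overlap (log2 fold change 0.47, SE 0.05, adjusted p = 3.13e-09). Jak1, shared by both receptors, had 516, 493 and 495 CPM in NPS-EMSC and 522, 549 and 539 CPM in EMSC. The groups did not overlap, but the log2 fold change of -0.10 did not pass (SE 0.04, adjusted p = 0.0580). It passed in 7 of the 11 alternatives that keep all libraries and without EMSC replicate 1 (-0.12, adjusted p = 0.0250). Tyk2 was not called, at -0.03 (95% interval -0.19 to 0.13).

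The transcription factors split. Stat2 had 101, 96.4 and 101 CPM in NPS-EMSC and 71.3, 71.4 and 64.7 CPM in EMSC, a rise of 1.44-fold (log2 fold change 0.53, SE 0.05, adjusted p = 3.83e-09). Irf3, the constitutive factor downstream of the RNA sensors, rose 1.30-fold to 57.3 ± 0.522 CPM in NPS-EMSC, against 44.1 ± 3.52 CPM in EMSC. Irf9, the DNA-binding partner of Stat2, fell to 25.0 ± 1.18 CPM in NPS-EMSC, against 32.2 ± 1.15 CPM in EMSC (log2 fold change -0.36, SE 0.07, adjusted p = 1.94e-04). Irf1 showed the largest difference of the 5 factors, with 24.1, 24.4 and 25.6 CPM in NPS-EMSC and 41.6, 40.1 and 46.7 CPM in EMSC. The groups were well apart, with a log2 fold change of -0.79 (SE 0.07, adjusted p = 1.13e-09). Irf7, the interferon-induced amplifier, had 13.7, 11.5 and 9.96 CPM in NPS-EMSC and 16.9, 13.6 and 13.6 CPM in EMSC, so NPS-EMSC replicate 1 overlapped the EMSC values. Its log2 fold change of -0.33 (SE 0.12, adjusted p = 0.0269) did not pass without NPS-EMSC replicate 2, NPS-EMSC replicate 3 or EMSC replicate 1 (adjusted p = 0.0630, 0.171 and 0.176).

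All 3 RNA sensors were called higher, each by less than 1.3-fold, where 29.7% of all tested genes were called higher. Ddx58, which recognises short RNA with a triphosphate end, had 55.3, 50.3 and 56.9 CPM in NPS-EMSC and 44.6, 44.7 and 40.2 CPM in EMSC (log2 fold change 0.33, SE 0.06, adjusted p = 1.20e-04). Ifih1, the sensor of long double-stranded RNA, rose by 0.25 (SE 0.09, adjusted p = 0.0163), with no overlap between the groups. It did not pass without NPS-EMSC replicate 2, EMSC replicate 1 or EMSC replicate 3 (adjusted p = 0.0541, 0.0509 and 0.0857), nor in any FPKM fit (adjusted p = 0.0625 to 0.0845). Dhx58, the regulator of the other two, rose by 0.35 (SE 0.15) at the edge of the threshold, with adjusted p = 0.04998. The call was lost without any NPS-EMSC library (adjusted p = 0.116, 0.0991 and 0.0626 without replicates 1, 2 and 3) and without EMSC replicate 3 (adjusted p = 0.233), and in 11 of 17 alternatives in all, among them upper-quartile scaling (adjusted p = 0.0775), no low-count filter (adjusted p = 0.0568) and every FPKM fit.

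Of 13 tested antiviral effectors, 9 were higher (69.2%), 1 lower (7.69%) and 3 not called, against 29.7% higher and 29.5% lower of all tested genes. Their median log2 fold change was 1.21. Mx1, Mx2 and Rsad2 reached the filter level in all NPS-EMSC but not all EMSC libraries. Without them, 6 of 10 were higher and 1 lower, with a median of 0.77. Most of the risen genes were expressed at a few CPM. Oasl, an oligoadenylate synthetase-like protein with ubiquitin-like domains, had 3.68, 3.75 and 3.18 CPM in NPS-EMSC and 1.26, 0.371 and 0.827 CPM in EMSC. Every NPS-EMSC value exceeded every EMSC value (log2 fold change 2.04, SE 0.32, adjusted p = 5.03e-06), and the value was 2.46 without EMSC replicate 1. Isg20, an exonuclease that degrades RNA, was expressed at a higher level, with 17.2, 15.05 and 17.7 CPM in NPS-EMSC and 6.31, 7.37 and 6.86 CPM in EMSC. It rose 2.42-fold (log2 fold change 1.28, SE 0.12, adjusted p = 9.46e-10), and no library stood apart. Oas1b had 4.26, 2.43 and 3.65 CPM in NPS-EMSC and 1.43, 0.891 and 1.75 CPM in EMSC (log2 fold change 1.31, SE 0.28, adjusted p = 2.65e-04).

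Mx1 and Mx2 encode dynamin-like GTPases that block virus replication. Mx1 had 62, 23 and 42 reads in NPS-EMSC and 18, 1 and 4 in EMSC, which is 1.62, 0.595 and 1.08 CPM in NPS-EMSC against 0.437, 0.0247 and 0.1002 CPM in EMSC. EMSC replicate 1 lay close to the lowest NPS-EMSC library (log2 fold change 2.26, SE 0.58, adjusted p = 0.00203), and without it the value was 3.34. Mx2 had 3.47, 3.28 and 1.82 CPM in NPS-EMSC and 1.26, 0.223 and 0.451 CPM in EMSC (log2 fold change 2.06, SE 0.45, adjusted p = 9.25e-04), and 2.91 without EMSC replicate 1. Rsad2, viperin, an enzyme that makes a chain-terminating nucleotide, had 2.51, 1.99 and 1.98 CPM in NPS-EMSC and 1.43, 0.247 and 0.1002 CPM in EMSC. Its log2 fold change was 1.77 (SE 0.66, adjusted p = 0.0421), and 3.29 without EMSC replicate 1. The call was lost without any NPS-EMSC library (adjusted p = 0.0922, 0.1001 and 0.0914 without replicates 1, 2 and 3) or without EMSC replicate 2 (adjusted p = 0.124), and in DESeq2 (adjusted p = 0.0996).

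The Ifit proteins bind viral RNA ends and block translation, and the 3 listed members differed in level and response. Ifit1 had 3.37, 1.81 and 2.003 CPM in NPS-EMSC and 1.77, 0.618 and 0.626 CPM in EMSC. The highest EMSC library nearly met the lowest NPS-EMSC library (log2 fold change 1.21, SE 0.38, adjusted p = 0.00857), and the value was 1.86 without EMSC replicate 1 and 0.89 without NPS-EMSC replicate 1 (adjusted p = 0.0806). Ifit3 had 1.67, 1.53 and 1.75 CPM in NPS-EMSC and 1.34, 0.445 and 0.551 CPM in EMSC, without overlap. It rose by 1.03 (SE 0.38, adjusted p = 0.0233), and by 1.63 without EMSC replicate 1. Its call was lost without NPS-EMSC replicate 1 or 3 (adjusted p = 0.0556 and 0.0653) and without EMSC replicate 2 or 3 (adjusted p = 0.110 and 0.0937). Ifit2, the most abundant of these, had 21.7, 23.5 and 22.2 CPM in NPS-EMSC and 19.4, 21.0 and 19.3 CPM in EMSC. Its log2 fold change was 0.17 and did not pass (95% interval 0.007 to 0.34, adjusted p = 0.0821). Bst2, tetherin, which holds budding virus at the membrane, rose by 0.24 (SE 0.09, adjusted p = 0.0209) and did not pass without NPS-EMSC replicate 1 (adjusted p = 0.114) or EMSC replicate 2 (adjusted p = 0.133), nor in any FPKM fit (adjusted p = 0.0551 to 0.132). Oas2 had 6, 0 and 4 reads in NPS-EMSC and 0 in each EMSC library, and Oas3 had 1, 4 and 3 reads in NPS-EMSC and 0, 9 and 0 in EMSC, and neither passed the low-count filter.

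**Figure D2:**
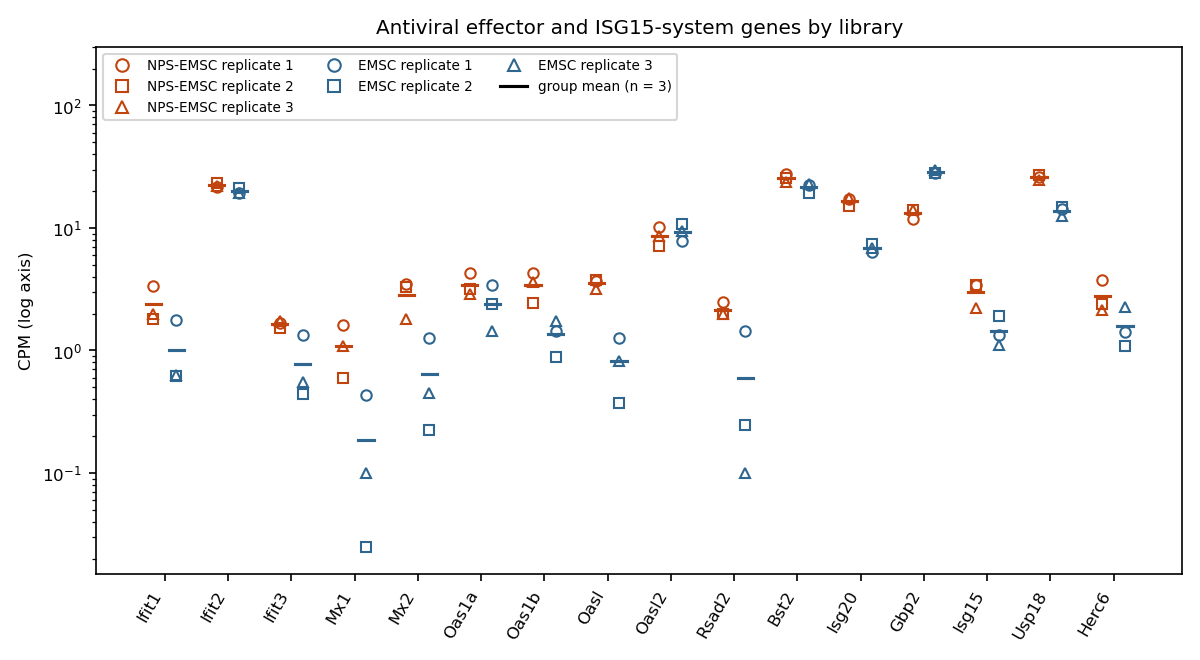
CPM on a log axis in each library for the 16 tested antiviral effector and ISG15-system genes, NPS-EMSC in red to the left of EMSC in blue, with a marker for each replicate number and a line at each group mean. EMSC replicate 1 (blue circles) is the highest EMSC library for Ifit1, Ifit3, Mx1, Mx2, Oasl and Rsad2, and Gbp2 is the gene whose NPS-EMSC values all lie below EMSC.

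Gbp2, a guanylate-binding protein induced above all by type II interferon, was the effector that fell. It had 11.8, 14.1 and 14.1 CPM in NPS-EMSC and 28.05, 27.98 and 29.6 CPM in EMSC, a 2.14-fold decrease without overlap (log2 fold change -1.10, SE 0.09, adjusted p = 1.13e-10). Leukocyte markers were lower in the same libraries, at a summed 40.1 to 43.7 CPM in NPS-EMSC and 83.3 to 91.7 CPM in EMSC, and their part in this result was not tested.

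Letters of the ISRE (GAAA, any 2 bases, GAAA, on either strand) and of the GAS (TTCNNNGAA, its own reverse complement) were sought in the RefSeq promoter table of build GRCr8, from 250 bases before to 50 after each annotated start. An entry was found for 33 of the 44 genes. ISRE letters stood in 20 of the 33 (60.6%), against 3.92% of all 33469 windows in the table, and GAS letters in 8 (24.2%), against 8.87% of all windows. ISRE letters stood in 10 of 17 windows of risen genes (58.8%), in 6 of 9 of fallen genes (66.7%) and in 3 of 6 of genes not called. The risen genes Ddx58, Dhx58, Ifit1, Mx2, Isg15 and Usp18 had no entry, while every fallen gene had one. The shares of risen and fallen genes are thus not on an equal footing. The remaining window with ISRE letters was that of a gene not tested. A match is a description, not a site. The windows of the effectors with the largest rise and fall and of the paralog pairs compared here follow, 5′ to 3′ on the gene's strand, with ISRE and GAS letters in capitals. They are Mx1 (chr11:50294557-50294856, minus strand), Oasl (chr12:47356243-47356542, minus), Oasl2 (chr12:47383136-47383435, minus), Oas1a (chr12:41330216-41330515, plus), Oas1b (chr12:41395803-41396102, minus) and Gbp2 (chr2:234005477-234005776, plus).
Mx1: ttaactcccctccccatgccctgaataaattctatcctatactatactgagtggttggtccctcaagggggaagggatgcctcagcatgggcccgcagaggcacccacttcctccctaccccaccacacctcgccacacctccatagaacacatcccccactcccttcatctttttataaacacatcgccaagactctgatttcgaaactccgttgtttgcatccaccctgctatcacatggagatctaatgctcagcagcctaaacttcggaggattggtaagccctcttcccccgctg
Oasl: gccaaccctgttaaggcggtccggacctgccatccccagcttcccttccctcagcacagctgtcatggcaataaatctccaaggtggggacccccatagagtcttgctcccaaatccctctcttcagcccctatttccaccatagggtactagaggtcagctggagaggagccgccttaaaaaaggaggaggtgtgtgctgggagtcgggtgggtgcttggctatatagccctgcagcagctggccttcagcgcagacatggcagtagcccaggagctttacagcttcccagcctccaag
Oasl2: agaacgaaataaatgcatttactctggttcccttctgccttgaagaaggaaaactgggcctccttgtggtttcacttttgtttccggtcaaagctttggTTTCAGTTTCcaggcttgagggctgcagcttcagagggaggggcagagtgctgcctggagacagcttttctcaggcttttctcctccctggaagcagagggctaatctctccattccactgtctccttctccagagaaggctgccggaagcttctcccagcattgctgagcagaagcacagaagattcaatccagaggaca
Oas1a: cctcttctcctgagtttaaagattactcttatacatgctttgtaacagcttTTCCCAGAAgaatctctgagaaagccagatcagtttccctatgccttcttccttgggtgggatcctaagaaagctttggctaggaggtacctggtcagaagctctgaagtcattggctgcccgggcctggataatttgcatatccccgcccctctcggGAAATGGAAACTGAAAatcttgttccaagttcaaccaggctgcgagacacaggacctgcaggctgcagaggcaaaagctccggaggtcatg
Oas1b: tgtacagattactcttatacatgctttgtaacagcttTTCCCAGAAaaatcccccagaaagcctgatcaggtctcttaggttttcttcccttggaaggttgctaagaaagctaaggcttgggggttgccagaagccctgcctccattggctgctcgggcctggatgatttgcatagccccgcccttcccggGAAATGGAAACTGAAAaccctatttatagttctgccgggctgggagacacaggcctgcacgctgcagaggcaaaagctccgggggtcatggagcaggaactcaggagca
Gbp2: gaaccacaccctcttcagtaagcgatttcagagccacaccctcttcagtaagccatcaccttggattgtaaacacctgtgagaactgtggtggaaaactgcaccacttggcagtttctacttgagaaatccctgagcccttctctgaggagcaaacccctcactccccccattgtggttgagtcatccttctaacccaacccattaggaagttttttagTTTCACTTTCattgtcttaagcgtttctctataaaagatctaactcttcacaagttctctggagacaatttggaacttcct

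The Mx1 and Oasl windows held neither set of letters, and these genes rose by 2.26 and 2.04 (Mx2, at 2.06, had no entry). The Oasl2 window held ISRE letters from position -151. Whether the letters bear on the changes was not tested. Oasl2 was not called, with 10.2, 7.11 and 8.63 CPM in NPS-EMSC and 7.84, 10.7 and 9.39 CPM in EMSC (log2 fold change -0.11, 95% interval -0.39 to 0.18). The FPKM ratio of Oasl to its paralog Oasl2 was 0.599 ± 0.134 in NPS-EMSC and 0.135 ± 0.0906 in EMSC (SD, n = 3 each; exact permutation p = 0.1). Oas1a and Oas1b, which lie near each other on the same chromosome, carried a pair of overlapping ISRE matches, from positions -41 and -35 in Oas1a and from -59 and -53 in Oas1b. Their windows shared a run of 41 identical bases. Oas1a had 4.28, 3.15 and 2.88 CPM in NPS-EMSC and 3.40, 2.40 and 1.45 CPM in EMSC, with overlap (log2 fold change 0.50, 95% interval -0.02 to 1.01, adjusted p = 0.107), and passed at 0.82 without EMSC replicate 1 (adjusted p = 0.0151). The FPKM ratio of Oas1b to Oas1a was 0.758 ± 0.187 in NPS-EMSC and 0.49995 ± 0.352 in EMSC, which overlapped (exact permutation p = 0.3). Oas1a and Oas1b are paralogs, and whether reads they share were split in counting was not tested. In Gbp2 the ISRE letters began at position -31.

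**Figure D3:**
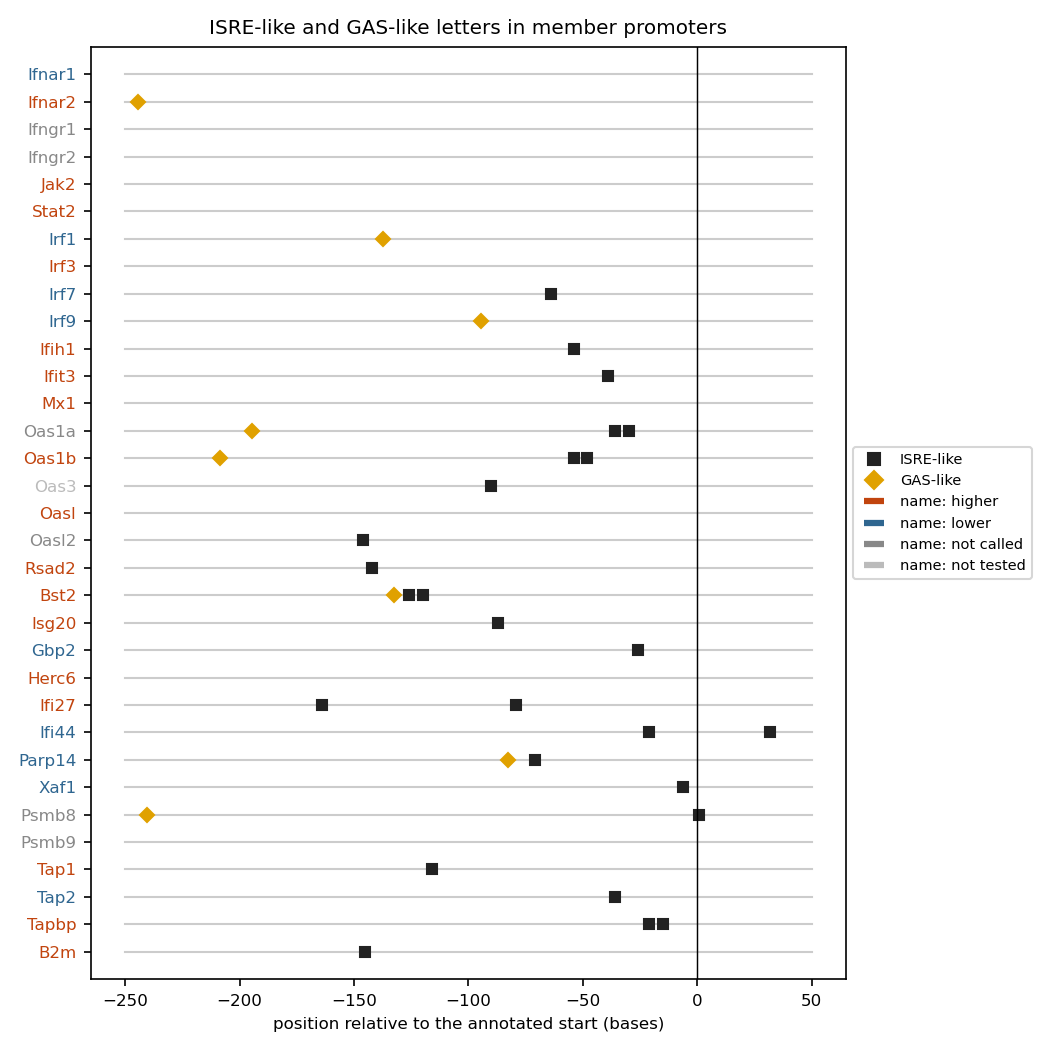
Positions of ISRE-like (black squares) and GAS-like (yellow diamonds) letters in the 33 promoter windows, in bases from the annotated start, with gene names coloured by the call. Squares stand in 10 of 17 windows of genes that rose and in 6 of 9 of genes that fell. Some risen genes had no entry and are not drawn, while every fallen gene is.

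In the ISG15 system, Isg15 is attached to proteins like ubiquitin, and Herc6 is the attaching ligase in mouse. Usp18 removes Isg15 and also restrains the type I receptor. All 3 listed members rose, where 29.7% of all tested genes were called higher. Usp18 had 25.9, 27.0 and 24.7 CPM in NPS-EMSC and 14.3, 14.8 and 12.5 CPM in EMSC, well apart (log2 fold change 0.90, SE 0.09, adjusted p = 5.29e-09). Isg15 had 3.42, 3.41 and 2.23 CPM in NPS-EMSC and 1.34, 1.90 and 1.10 CPM in EMSC, with no overlap (log2 fold change 1.04, SE 0.28, adjusted p = 0.00222). Herc6 overlapped, at 3.76, 2.38 and 2.16 CPM in NPS-EMSC and 1.41, 1.09 and 2.25 CPM in EMSC. Its rise of 0.79 (SE 0.30, adjusted p = 0.0249) was lost without NPS-EMSC replicate 1, EMSC replicate 1 or EMSC replicate 2 (adjusted p = 0.205, 0.0693 and 0.114).

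Of the 5 other induced genes, 3 were lower (60%), 1 higher (20%) and 1 not called, against 29.5% lower and 29.7% higher of all tested genes. Ifi44 had 11.2, 9.95 and 10.6 CPM in NPS-EMSC and 19.2, 21.2 and 22.04 CPM in EMSC (log2 fold change -0.97, SE 0.10, adjusted p = 6.60e-09). Xaf1, a pro-apoptotic partner of an inhibitor of apoptosis, fell to 7.46 ± 0.441 CPM in NPS-EMSC, against 12.04 ± 0.209 CPM in EMSC (log2 fold change -0.69, SE 0.12). Parp14, a mono-ADP-ribosyltransferase, had 93.5, 82.7 and 88.9 CPM in NPS-EMSC and 105, 111 and 114 CPM in EMSC, a log2 fold change of -0.32 (SE 0.05). Ifi27 rose 1.29-fold, to 174 ± 10.9 CPM in NPS-EMSC, against 136 ± 5.09 CPM in EMSC. Rtp4, a receptor chaperone that is interferon-induced in mouse, was not called (log2 fold change -0.10, 95% interval -0.56 to 0.36), and replicate 1 was the highest library of either group, at 5.64 CPM in NPS-EMSC and 5.39 CPM in EMSC.

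**Figure D4:**
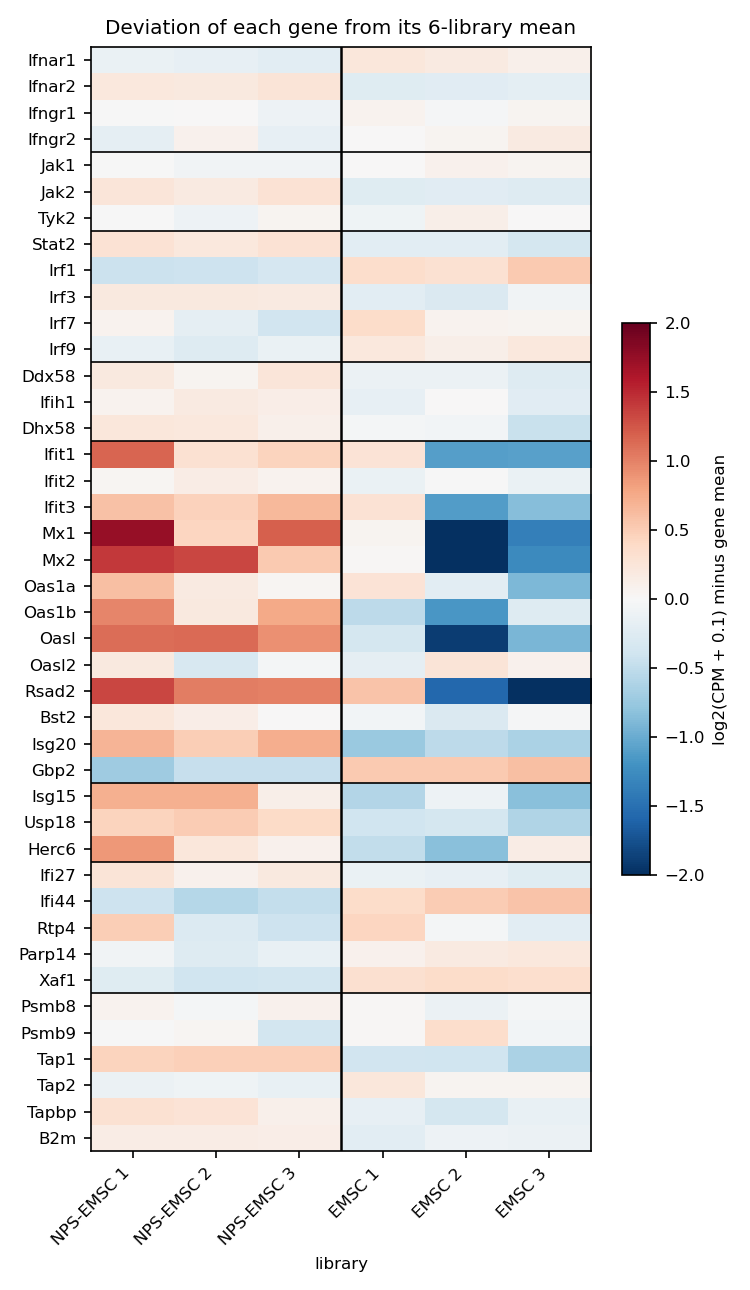
Log2(CPM + 0.1) of each tested gene minus its mean over the 6 libraries, NPS-EMSC columns left of EMSC columns, with black lines between roles. The effector rows show the strongest contrast and EMSC replicate 1 is paler there than the other EMSC libraries, while Irf1, Gbp2, Ifi44 and Xaf1 run the other way.

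Class I molecules present peptides that the proteasome cuts, that Tap1 and Tap2 jointly carry into the endoplasmic reticulum and that tapasin (Tapbp) helps to load. Of the 6 listed genes of this machinery, 3 rose (50%), 1 fell (16.7%) and 2 were not called, against 29.7% higher and 29.5% lower of all tested genes. The share called was 66.7%, near the 59.3% of all tested genes. Tap1 had 38.4, 39.3 and 39.4 CPM in NPS-EMSC and 21.6, 21.4 and 18.1 CPM in EMSC, a 1.91-fold rise without overlap (log2 fold change 0.94, SE 0.08, adjusted p = 1.59e-10). Its partner Tap2 had 33.8, 34.4 and 33.0 CPM in NPS-EMSC and 42.9, 37.7 and 37.9 CPM in EMSC. All NPS-EMSC values lay below those of EMSC (log2 fold change -0.23, SE 0.07, adjusted p = 0.00697), although the call was lost without EMSC replicate 1 (-0.17, adjusted p = 0.0540). The FPKM ratio of Tap1 to Tap2 was 1.05 ± 0.0279 in NPS-EMSC and 0.468 ± 0.0423 in EMSC (SD, n = 3 each; exact permutation p = 0.1). Tapbp had 70.0, 68.7 and 61.0 CPM in NPS-EMSC and 50.5, 44.6 and 51.2 CPM in EMSC (log2 fold change 0.45, SE 0.06, adjusted p = 1.78e-06). B2m had 978, 983 and 969.8 CPM in NPS-EMSC and 763, 822 and 819.7 CPM in EMSC, a 1.22-fold rise (log2 fold change 0.29, SE 0.05, adjusted p = 6.58e-06).

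Tap1 and Psmb9 stand head to head, with 457 bases between their annotated starts in RefSeq, so their promoter windows overlap by 44 bases. The windows of this pair and of Tap2 follow on each gene's strand, with ISRE letters in capitals: Tap1 (chr20:4668494-4668793, minus strand, GRCr8), Psmb9 (chr20:4668750-4669049, plus) and Tap2 (chr20:4652247-4652546, minus).
Tap1: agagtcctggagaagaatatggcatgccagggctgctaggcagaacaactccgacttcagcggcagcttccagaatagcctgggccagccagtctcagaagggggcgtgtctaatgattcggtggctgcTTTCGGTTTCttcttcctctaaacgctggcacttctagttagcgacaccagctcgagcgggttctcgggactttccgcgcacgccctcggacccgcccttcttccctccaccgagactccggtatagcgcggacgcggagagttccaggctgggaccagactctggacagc
Psmb9: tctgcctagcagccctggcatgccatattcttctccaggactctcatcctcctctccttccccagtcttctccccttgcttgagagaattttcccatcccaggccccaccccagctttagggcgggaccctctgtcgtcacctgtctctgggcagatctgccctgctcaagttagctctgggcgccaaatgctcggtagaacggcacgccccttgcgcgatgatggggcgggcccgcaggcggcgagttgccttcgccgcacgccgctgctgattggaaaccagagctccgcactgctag
Tap2: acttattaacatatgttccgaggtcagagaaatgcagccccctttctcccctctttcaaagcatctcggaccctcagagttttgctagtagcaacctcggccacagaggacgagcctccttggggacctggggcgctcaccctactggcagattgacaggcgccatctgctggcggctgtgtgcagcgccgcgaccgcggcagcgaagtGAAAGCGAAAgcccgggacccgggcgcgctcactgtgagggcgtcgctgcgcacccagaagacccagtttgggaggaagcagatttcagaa

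ISRE letters began at position -121 in Tap1 and at -41 in Tap2, and the Psmb9 window held neither set. The Tap1 letters lie between the starts of Tap1 and Psmb9, outside the Psmb9 window, which reaches only 250 bases before its start. The stretch between these genes thus holds ISRE letters, although the Psmb9 window does not. Psmb9, an immunoproteasome catalytic subunit, had 18.5, 19.0 and 14.4 CPM in NPS-EMSC and 18.9, 23.7 and 17.9 CPM in EMSC, with overlap. It was not called (log2 fold change -0.22, 95% interval -0.45 to 0.01, adjusted p = 0.108), and passed at -0.30 without EMSC replicate 3 (adjusted p = 0.0433). The FPKM ratio of Tap1 to Psmb9 was 0.823 ± 0.136 in NPS-EMSC and 0.365 ± 0.0426 in EMSC (exact permutation p = 0.1). Psmb8, another immunoproteasome subunit, was not called (log2 fold change 0.08, 95% interval -0.06 to 0.23, adjusted p = 0.349).

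The immunoproteasome subunits Psmb8, Psmb9 and Psmb10 replace Psmb5, Psmb6 and Psmb7 of the standard proteasome. Psmb10 fell by 0.35 (SE 0.09, adjusted p = 0.00158). Of 14 tested genes of the standard core, 11 rose (78.6%, against 29.7% of all tested genes), and the median log2 fold change was 0.23. Among the 14, only Psmb5, Psmb6 and Psmb7 are the replaced subunits, so this count does not compare the standard form with the immunoproteasome. Psmb3, Psma1, Psmb7 and Psma2 had the smallest p of the 14, with log2 fold changes of 0.43, 0.38, 0.37 and 0.36. The FPKM ratio of Psmb10 to Psmb7 was 0.150 ± 0.00782 in NPS-EMSC and 0.247 ± 0.0197 in EMSC, and that of Psmb9 to Psmb6 was 0.262 ± 0.0387 in NPS-EMSC and 0.342 ± 0.0414 in EMSC (SD, n = 3 each; exact permutation p = 0.1 for both). Neither ratio overlapped between the groups. That of Psmb8 to Psmb5 did, at 0.328 ± 0.00969 in NPS-EMSC and 0.316 ± 0.00584 in EMSC (exact permutation p = 0.3). The p-values were adjusted over 9 gene pairs by Benjamini-Hochberg, which gave 0.129 where the exact p was 0.1 and 0.3 where it was 0.3. Psmb10 was named for its place in this set, after its values were seen.

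**Figure D5:**
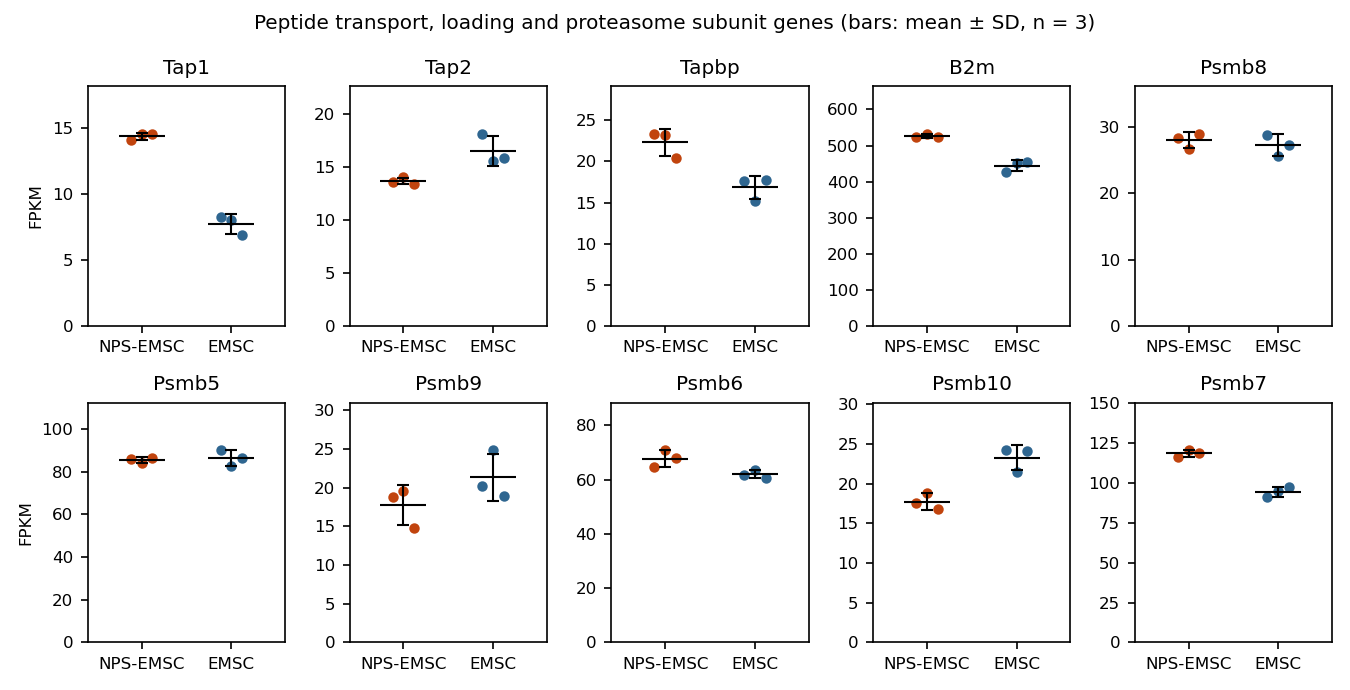
FPKM in each library for Tap1, Tap2, Tapbp, B2m and the immunoproteasome subunits Psmb8, Psmb9 and Psmb10, each subunit followed by its standard counterpart, NPS-EMSC left of EMSC, with mean and SD as bars. Tap1 is higher and Tap2 lower in every NPS-EMSC library, and Psmb10 and Psmb7 move in opposite directions.

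In rat, the class I heavy chains are among the RT1 genes, a name that class II genes also carry. By symbol, in a choice made after the values above were seen, 31 class I RT1 genes had a row and 24 were tested. Of these, 13 rose (54.2%) and 2 fell (8.33%), against 29.7% and 29.5% of all genes, and the median log2 fold change was 0.59. The other 9 were not called, RT1-M3-1, RT1-N2 and RT1-S3 among them. RT1-CE5 had 112 ± 6.27 CPM in NPS-EMSC and 56.1 ± 1.75 CPM in EMSC (SD, n = 3 each; log2 fold change 0.99, SE 0.05), and RT1-A2 had 94.3 ± 4.29 CPM in NPS-EMSC and 58.9 ± 6.44 CPM in EMSC (log2 fold change 0.68, SE 0.07). These genes are close copies and differ between rat strains, so the split of reads among them is uncertain. Of 18 further class I loading genes, 4 rose (22.2%) and 5 fell (27.8%), with a median of -0.04. Lnpep and Tapbpl, a trimming peptidase and a tapasin relative, had log2 fold changes of -0.43 and -0.44, the proteasome activator Psme1 had -0.36, and the antibody receptor chain Fcgrt had 0.26. Of 15 class II presentation genes 6 were tested, and 4 rose (66.7%) and 1 fell (16.7%). The costimulatory gene Cd80 rose to 23.4 ± 1.07 CPM in NPS-EMSC, against 5.40 ± 0.598 CPM in EMSC, and RT1-DMa and Lgmn rose by 1.0003 and 0.69 on the log2 scale. Ctss, a protease abundant in leukocytes, fell by 1.22 on the log2 scale, beside the lower leukocyte marker level given above, whose part was not tested.

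Interferon transcripts themselves were scarce. Of 14 listed ligand and lambda-receptor genes, 3 had a row, in tables where every row holds at least 1 read. Ifna1 had 0, 1 and 0 reads in NPS-EMSC and 3, 1 and 1 in EMSC, too few for a fold. Ifnlr1, the lambda receptor chain, rose by 0.32 (SE 0.07, adjusted p = 4.20e-04), and Il10rb, its partner, was not called. Among 19 tested adaptors and kinases of nucleic acid sensing, 6 rose and 5 fell (57.9% called, against 59.3% of all genes; median 0.10), with Tlr3, Trim25 and Traf3 at -0.45, -0.35 and -0.30 and Tank at 0.38.

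Of 21 tested STAT and IRF factors and negative regulators outside the listed genes, 7 rose (33.3%) and 10 fell (47.6%), against 29.7% and 29.5% of all genes (median -0.14). Socs3, a feedback inhibitor of JAK signalling, fell to 72.9 ± 2.82 CPM in NPS-EMSC, against 119 ± 4.46 CPM in EMSC (log2 fold change -0.71, SE 0.05, adjusted p = 7.01e-12). Stat5b and Stat6 had -0.43 and -0.31, and the phosphatase gene Ptpn2 had 0.53. Socs1, named after its values were seen, had 0.959 ± 0.241 CPM in NPS-EMSC and 2.88 ± 0.649 CPM in EMSC (log2 fold change -1.54, SE 0.30, adjusted p = 8.09e-05).

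A further 58 tested interferon-induced genes gave 16 higher and 21 lower calls, with a median of -0.04. The share called was 63.8%, near the 59.3% of all genes, with 27.6% higher and 36.2% lower. Eif2ak2, the RNA-activated kinase PKR, rose by 0.23 (SE 0.06, adjusted p = 0.00189). The Schlafen genes went both ways: Slfn5 fell to 80.8 ± 2.79 CPM in NPS-EMSC, against 207 ± 13.0 CPM in EMSC, and Slfn13 had a log2 fold change of -0.81, while Slfn4 rose to 39.4 ± 4.35 CPM in NPS-EMSC, against 13.0 ± 0.286 CPM in EMSC. Ifi27l2b rose by 2.11 (SE 0.13). Of 8 listed chemokines 5 were tested, and 3 rose (60%) and 1 fell (20%), against 29.7% and 29.5% of all tested genes. Ccl7, Ccl20 and Cxcl10 rose by 2.22, 2.04 and 0.94 and Cxcl16 fell by 0.79 on the log2 scale. Cxcl10, the chemokine most tied to interferon, had 4.38 ± 0.570 CPM in NPS-EMSC and 2.25 ± 0.497 CPM in EMSC (SD, n = 3 each; adjusted p = 6.06e-04).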

How the data were processed

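RNA of 3 NPS-EMSC and 3 EMSC libraries was sequenced in bulk. Per the labels' protocols, RNA came from a TRIzol extraction and libraries from the VAHTS Universal V6 RNA kit. Tools named in the submitters' processing notes, with no role or order, are HISAT2, StringTie, HTSeq, fastp, DESeq and R 3.2.0. Build, annotation and strand setting: not given in the sources used here. Reads of a gene and of its antisense partner cannot then be told apart.

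The authors deposited a table of whole read counts per gene and a table of FPKM. Each gene's deposited FPKM is its count rescaled by 1 length (to within 0.1 percent for all 20653 genes), so FPKM is no separate measurement.

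Groups were compared in edgeR 4.0.16 (R 4.3.3) by robust quasi-likelihood fits on TMM-scaled counts kept by filterByExpr (minimum count 10, minimum total 15), with adjustment over 14505 genes. A prior count of 2 pulls fold changes of low genes towards 0. SE was taken as the size of the log2 fold change over the root of F, and 95% intervals span 1.96 SE to each side, so both are rough at few reads. The script was tested on simulated counts.

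The members, their roles and the surrounding lists were chosen with earlier results of these data known. Any member could be named; of each surrounding list every called gene where at most 4 were called, otherwise the 4 with the smallest p, plus Eif2ak2. A further gene that the rule names, and the gene pair it belongs to, are not reported here. Alternatives changed the scaling (RLE, upper quartile), the tool (DESeq2 1.42.0; voom in limma 3.58.1), the filter (none; 1 CPM in 3 libraries), the unit (limma on log2 FPKM with a pseudocount of 1 or 0.1, filtered at 0.5 FPKM, or unfiltered with 1), the threshold (0.01), the block, or dropped 1 library.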

Additional observations from a re-analysis of the deposited data

How the results depend on the processing

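Over the 17 alternatives the counts of members called higher and lower, of all genes called and of called genes in the surrounding lists stayed within 1.5 times the values reported. That tolerance is wide: members called higher ranged from 17 to 24, against 23 reported. Those called lower ranged from 8 to 11, against 9 reported. Of the 32 called members, 23 were called under every alternative in which they were tested, 16 higher and 7 lower. The 16 include Mx1 and Mx2, which were tested because they were high in NPS-EMSC, so their stability is no separate support. Mx1 was tested in only 14 of the 17 alternatives. The other 9 called members were Irf7, Ifih1, Dhx58, Ifit1, Ifit3, Rsad2, Bst2, Herc6 and Tap2. No called member changed sign. With a library left out, 3 genes that were not called crossed 0: Tyk2 ranged from -0.0798 to 0.0230, Oasl2 from -0.24 to 0.0190 and Rtp4 from -0.44 to 0.11. On filtered log2(FPKM + 1) values 40 members were tested and 28 called, 27 of them shared with the 32. Mx1 and Herc6 did not pass the filter of 0.5 FPKM and were not tested there. Without a filter 26 were called, 25 of them shared. The cause of the other differences was not tested. The titles number the libraries 1 to 3 in each group, but same-numbered libraries did not deviate together (correlations of -0.0389, 0.0460 and 0.0356 over tested genes), so the numbers were not taken as pairs. With the replicate block 34 members were called, 24 higher and 10 lower, and all 32 were among them; the added calls were Oas1a and Psmb9 (adjusted p = 0.0484 and 0.0467), and 8588 genes were called in all. Depth limits the genes at a few CPM: 1 read is about 0.025 CPM, and Oas2 and Oas3, below the low-count filter, were tested without it and not called.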

Other observations

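Replicate 1 was at least 1.5 times the mean of the other libraries of its group in 3 of the 16 tested effector and ISG15-system genes in NPS-EMSC and in 7 in EMSC. Of these 16 genes, replicate 1 was the highest NPS-EMSC library in 10 and the highest EMSC library in 7. Irf7 and Rtp4 were also highest in replicate 1 of both groups, at 13.7 and 5.64 CPM in NPS-EMSC and 16.9 and 5.39 CPM in EMSC. The same held for Ifnar1, Dhx58 and Ifi27. How often replicate 1 was the highest library over all tested genes was not counted. The labels give no batch for these libraries.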
